A study of Homo sapiens with 5 samples.

Results

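The regions described are p53 binding sites that appeared after DNA damage next to JMJD3, but not under it. They are the p53 sites of irradiated BJ cells that share no base with a p53 site of untreated cells or with a JMJD3 site of irradiated cells, and that have at least 1 JMJD3 site of irradiated cells within 10 kb of either border. They are called flanked p53 sites here. The members were selected on these listed positions, so the missing overlap and the JMJD3 site within 10 kb are given as a description and not as findings. The rule was met by 657 of 3232 irradiated-cell p53 sites (20.3%, with an exact 95% interval of 19.0 to 21.8%). They made up 22.7% (21.2 to 24.3%) of the 2889 p53 sites listed only after ionizing radiation (IR). Of the other sites listed only after IR, 574 overlapped a JMJD3 site and 1658 had no JMJD3 site within 10 kb, and these are called overlapped and isolated p53 sites. The remaining 343 p53 sites were already listed before IR.

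BJ is a human foreskin fibroblast line, used here in a form immortalized with telomerase (hTERT). Chromatin was taken from untreated cells or from cells exposed to 10 Gy of IR and harvested 6 h later according to the labels, while the paper's text gives a slightly shorter time. DNA bound by p53 (antibody DO-1) or by JMJD3 (a rabbit antibody raised against a JMJD3 fragment) was recovered by ChIP-seq, with 1 library for each antibody and condition. An untreated rabbit IgG library served the authors as the control for peak detection and was not analysed here. All cells carried the hTERT transgene, and every library came from the same line. With 1 library per condition there is no replicate check and no test was made. The exact 95% intervals (Clopper-Pearson for shares, order statistics for medians) cover counting error only, and neighbouring sites are not independent.

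p53 is a transcription factor that is kept at a low level in unstressed cells, becomes stable after DNA damage and binds its response elements as a tetramer, often far from promoters. JMJD3, also called KDM6B, removes methyl groups from lysine 27 of histone H3, a mark of Polycomb repression. Whether JMJD3 is listed on a p53 site or beside it is the distinction that sets the flanked sites apart from the overlapped ones.

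The 4 lists differed in length and in the width of their sites. There were 361 p53 and 4717 JMJD3 sites in untreated cells, and 3232 p53 and 35133 JMJD3 sites after IR. Read numbers are not part of the lists, so sequencing depth is unknown, and a site that is not listed may still have been bound below the threshold of peak detection. JMJD3 sites after IR could be as narrow as 125 bp, whereas the smallest width in the other lists was 200 bp. Positions are on the hg18 assembly and are counted from 1. The gene and sequence tables used here belong to GRCh38, and since no position was converted, genes and DNA sequence at the flanked sites were not assigned.

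The flanked sites lay at all distances from JMJD3 that the rule allowed, with the densest group close to the p53 border. The median distance from a flanked p53 site to its nearest JMJD3 site after IR was 4000 bp (3656 to 4425 bp, n = 657), and distances ran from 1 to 9994 bp. In 41 sites (6.24%) the gap was at most 200 bp, in 93 (14.2%) at most 500 bp and in 147 (22.4%) at most 1000 bp. At the other end, 263 (40.0%) had their nearest JMJD3 site more than 5000 bp away. The median moves with the window by construction, to 1679 bp for a window of 5 kb and to 6825.5 bp for a window of 20 kb. The limit of 10 kb fell in a smooth stretch of the distribution, since the last 500 bp inside it held 25 sites and the first 500 bp outside it held 22.

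**Figure D1:**
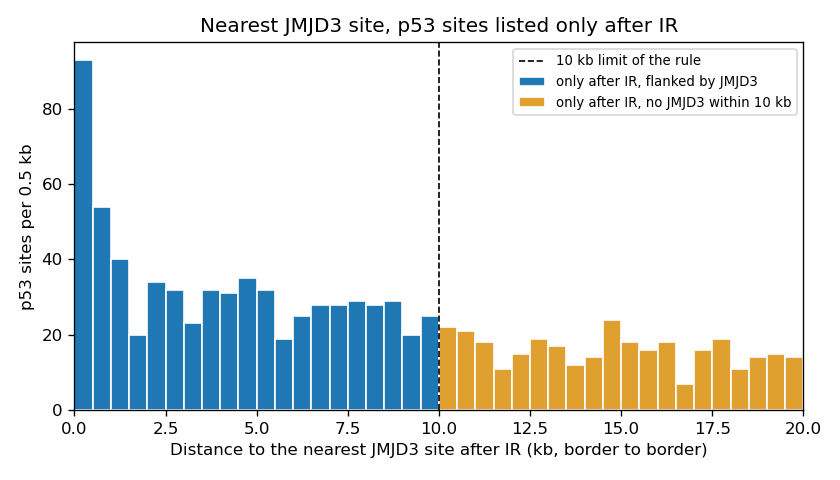
Number of p53 sites listed only after IR (vertical axis, per 0.5 kb) by distance in kb to the nearest JMJD3 site after IR (horizontal axis), up to 20 kb; blue bars are flanked sites, orange bars isolated sites, and the dashed line is the limit of the rule. The first bar holds 93 sites, the bars beyond 2 kb hold far fewer, and there is no step at 10 kb, where 25 sites lie just inside and 22 just outside.

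The closest pair lay on chromosome 22, where the p53 site from 23221077 to 23221386 began 1 bp after a JMJD3 site of 125 bp, the smallest JMJD3 width. On chromosome 2 the p53 site from 24160532 to 24160735 had a JMJD3 site 12 bp away and 5 JMJD3 sites within 10 kb. On chromosome 11 the p53 site from 12044082 to 12044434 had a JMJD3 site of 251 bp at a gap of 13 bp. All 3 gaps were small beside the widths of the sites. None of the 3 had an untreated JMJD3 site within 10 kb.

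Just inside the limit were the p53 sites chr11:32059291-32059660, chr6:44555913-44556112 and chr20:35456666-35457060, whose only JMJD3 sites were 9994, 9974 and 9962 bp away. Just outside it were chr10:93101023-93101268, chr7:156784274-156784526 and chr9:118489164-118489488, with the nearest JMJD3 site at 10028, 10031 and 10061 bp. The p53 sites were 200 to 395 bp wide inside the limit and 246 to 325 bp wide outside it.

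Most flanked sites had a single JMJD3 neighbour. Of the 657, 408 (62.1%) had 1 JMJD3 site within 10 kb, 151 (23.0%) had 2 and 98 (14.9%) had 3 or more, up to 13. Together these made 1135 pairs of a flanked p53 site and a JMJD3 site after IR. JMJD3 sites stood on both sides of the p53 site in 110 cases (16.7%, 14.0 to 19.8%). Where exactly 2 JMJD3 sites were present they bracketed the p53 site in 53 of 151 cases (35.1%) and lay on the same side in the rest. Single JMJD3 neighbours lay toward lower coordinates in 215 cases and toward higher coordinates in 193. The share with JMJD3 on both sides rose with the window by construction, to 25.9% at 20 kb, and was 10.8% with the narrow JMJD3 sites, those under 200 bp, removed.

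Sites with several JMJD3 neighbours had the nearest one closer. The median distance to the nearest JMJD3 site was 4797.5 bp for p53 sites with 1 neighbour, 3571 bp with 2 and 1477.5 bp with 3 or more, an order that more neighbours give by construction. The p53 sites themselves did not widen in step, with medians of 270 bp (258 to 282 bp), 254 bp (243 to 276 bp) and 280.5 bp (247 to 302 bp). Nor did the width follow distance, since p53 sites within 200 bp of JMJD3 had a median of 277 bp (234 to 300 bp) and those over 5000 bp away 264 bp (247 to 275 bp).

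The p53 sites with the most JMJD3 neighbours stood inside runs of JMJD3 sites. On chromosome 2 the p53 site from 65149434 to 65149752 had 13 JMJD3 sites after IR within 10 kb, 3 on one side and 10 on the other, covering 2700 bp together. In untreated cells a single JMJD3 site of 200 bp was listed there, 5105 bp from the p53 site, and it was not overlapped by any of the 13. On chromosome 16 the site from 55532746 to 55532947 had 11 JMJD3 sites after IR and 2 in untreated cells. On chromosome 6 the site from 36684012 to 36684211 also had 11, with 3 JMJD3 sites in untreated cells and the nearest of these 751 bp away. A further 4 flanked sites had 8 JMJD3 neighbours each. The wider p53 sites among these 4, chr1:179335221-179335734 and chr15:78564759-78565181, had none and 2 JMJD3 sites in untreated cells. In the 5 places named the p53 site fell in a gap of the JMJD3 run, between 234 bp and 3411 bp from the nearest JMJD3 site.

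**Figure D2:**
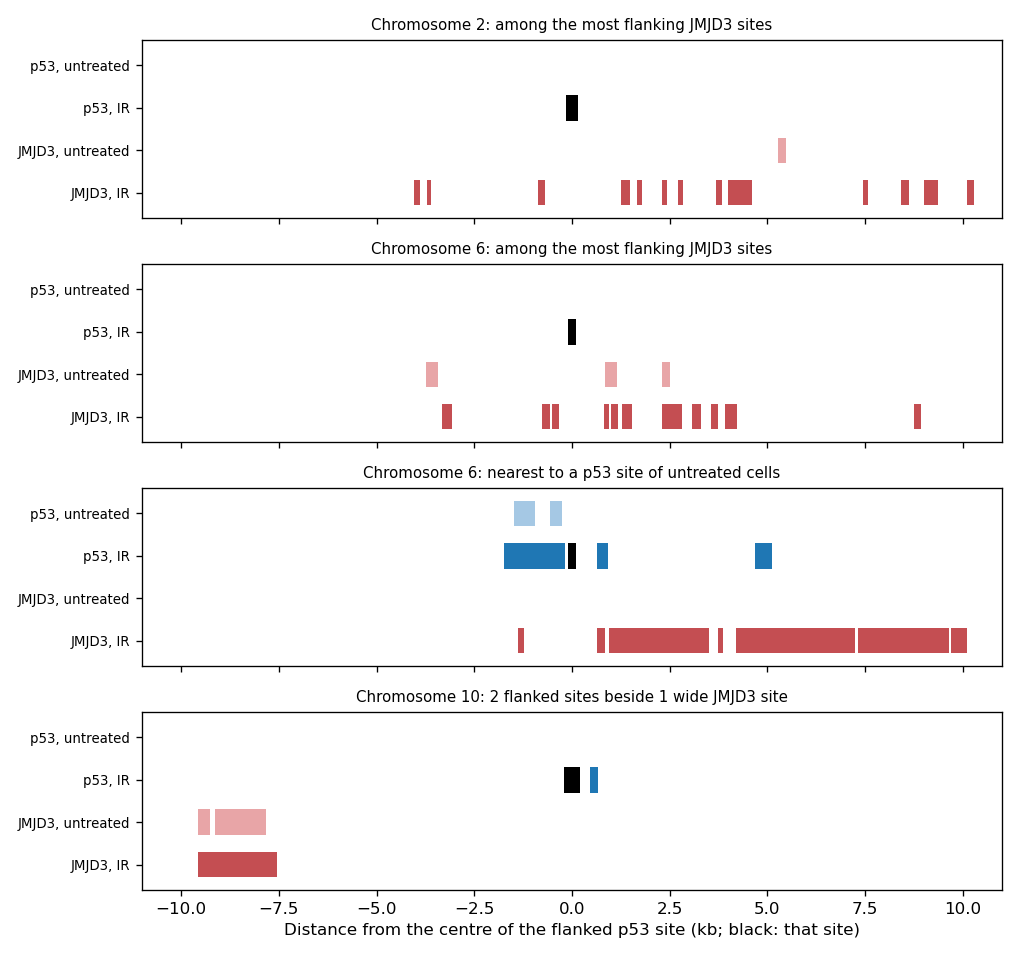
Maps of 4 flanked p53 sites, with each listed site drawn to scale by its distance in kb from the centre of the flanked p53 site (black); rows are the 4 lists, and from top to bottom the maps are the site with 13 JMJD3 neighbours, a site with 11, the site nearest to a p53 site of untreated cells, and 1 of a pair of sites beside a wide JMJD3 site. The black site never touches a JMJD3 site after IR, and in the third map it lies between a p53 site of 1554 bp and the widest flanking JMJD3 sites.

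The third map shows the flanked site nearest to p53 binding of untreated cells, on chromosome 6 from 36753390 to 36753589. It was 200 bp wide and lay 145 bp from an untreated p53 site and 77 bp from a p53 site of 1554 bp listed after IR, which covers that untreated site. On its other side were a p53 site of 273 bp and then 1 of 437 bp, both listed after IR. The 7 JMJD3 sites within 10 kb covered 8830 bp, the most at any flanked site. The widest of them, 3041 bp from 36757693 to 36760733, was the widest JMJD3 site at any flanked p53 site. No JMJD3 site of untreated cells lay closer than 66.8 kb. The JMJD3 site nearest to the flanked site was 203 bp wide and lay 546 bp away, overlapping the p53 site of 273 bp.

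The next flanked sites in closeness to untreated p53 binding had 1 JMJD3 neighbour each, as did 62.1% of all flanked sites. The p53 site on chromosome 2 from 101688095 to 101688323 lay 776 bp from an untreated p53 site, and its 1 JMJD3 site was 8243 bp away. On chromosome 9 the site from 138137051 to 138137250 was 4084 bp from an untreated p53 site, and the JMJD3 site after IR, 173 bp wide, lay within the p53 site listed after IR at that place. An untreated p53 site lay within 10 kb of 10 of the 657 flanked sites (1.52%, 0.732 to 2.78%), of 2.79% (1.60 to 4.49%) of overlapped and of 0.724% (0.375 to 1.26%) of isolated sites, and the interval of the flanked sites overlapped both others. The rule leaves out sites that overlap untreated p53 in all 3 classes, whereas the 11.8% over all p53 sites includes the 343 that do.

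JMJD3 around the flanked sites was set beside its list in untreated cells, which the rule did not use. None of the 657 flanked sites overlapped an untreated JMJD3 site, which allows a share of up to 0.457%. The share was 2.63% over all p53 sites after IR and 0.121% at isolated sites. It was 13.8% at overlapped sites, which were chosen for an overlap with JMJD3 after IR. Of the 4717 untreated JMJD3 sites, 4095 (86.8%) overlapped a JMJD3 site after IR, and the rule leaves out p53 sites that overlap one of those, so the 0 is largely set by the rule. Within 10 kb, 96 flanked sites (14.6%, 12.0 to 17.5%) had a JMJD3 site in untreated cells, against 7.83% of all p53 sites after IR. The rule raises the first value, since it asks for JMJD3 after IR in the same window, so nothing is read from the difference. The share was 21.4% (18.1 to 25.0%) at overlapped sites and 0.483% (0.209 to 0.949%) at isolated sites, where it is held down by the absence of JMJD3 after IR. For 13 of the 96, an untreated JMJD3 site in the window had no overlapping JMJD3 site after IR. Counting JMJD3 sites after IR only from 200 bp, the flanked sites were 417, of which 59 were overlapped sites by the rule used here, and the share with untreated JMJD3 was 25.4%, and with a window of 20 kb it was 10.1%.

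The remaining 561 flanked sites had no JMJD3 listed within 10 kb before damage. The number of JMJD3 sites in the windows was 119 in untreated cells and 1135 after IR, counted per p53 site, a ratio of 9.54. Over the whole lists the ratio was 7.45, and the value at flanked sites is raised by the rule, which asks for JMJD3 after IR. The untreated list holds no site under 200 bp, and with this minimum for both lists, a setting chosen after the data were seen, the windows held 486 JMJD3 sites after IR and the ratios were 4.08 and 3.28. Sites with a single JMJD3 neighbour after IR had untreated JMJD3 within 10 kb in 6.86% (4.61 to 9.77%) of 408 cases, and those with 3 or more in 45.9% (35.8 to 56.3%) of 98 cases. Thus 45 of the 96 flanked sites with untreated JMJD3 were among the 98 with the most JMJD3 after IR, where more neighbours also give more chances of a match.

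Beyond the window the rule named no condition, but JMJD3 sites lie in runs, so a choice by JMJD3 within 10 kb also bears on the places beyond. Between 10 and 50 kb away, 148 flanked sites (22.5%, 19.4 to 25.9%) had an untreated JMJD3 site, against 20.7% (17.5 to 24.3%) of overlapped, 14.6% of sites listed before IR and 9.59% (8.21 to 11.1%) of isolated sites, and 14.7% of all p53 sites. Flanked and overlapped sites could not be separated by these intervals, and nothing is read from the lower value of the isolated sites, which were chosen for having no JMJD3 nearby. The median distance to the nearest untreated JMJD3 site, taken over all sites and so in part set by the rule within 10 kb, was 127 kb for flanked, 109 kb for overlapped and 297 kb for isolated sites.

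The density of JMJD3 after IR was highest next to the flanked sites and showed no steady fall inside the window. It was 131 sites per Mb within 1 kb of the p53 border, 70.8 at 1 to 2 kb, 75.6 at 2 to 5 kb and 87.1 at 5 to 10 kb, all within the window that chose the sites. It was 41.6 sites per Mb at 10 to 20 kb and 29.4 at 50 to 100 kb, and the drop at 10 kb falls on the limit of the rule. Around overlapped sites the density outside the overlap was 145 sites per Mb within 1 kb, 77.5 at 1 to 2 kb, 63.0 at 2 to 5 kb, 58.2 at 5 to 10 kb and 44.9 at 10 to 20 kb. At 5 to 10 kb it was thus lower than at flanked sites, for which the rule asks for JMJD3 in the window. Isolated sites had 14.1 JMJD3 sites per Mb at 10 to 20 kb and 17.6 at 50 to 100 kb. In untreated cells the flanked sites had 8.37 JMJD3 sites per Mb within 1 kb, 13.7 at 1 to 2 kb, 6.60 at 2 to 5 kb, 9.74 at 5 to 10 kb and 7.46 at 10 to 20 kb, while overlapped sites had 22.6 within 1 kb and 6.71 at 10 to 20 kb. The untreated values of flanked sites within 1 kb and at 1 to 2 kb rest on 11 and 18 JMJD3 sites.

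**Figure D3:**
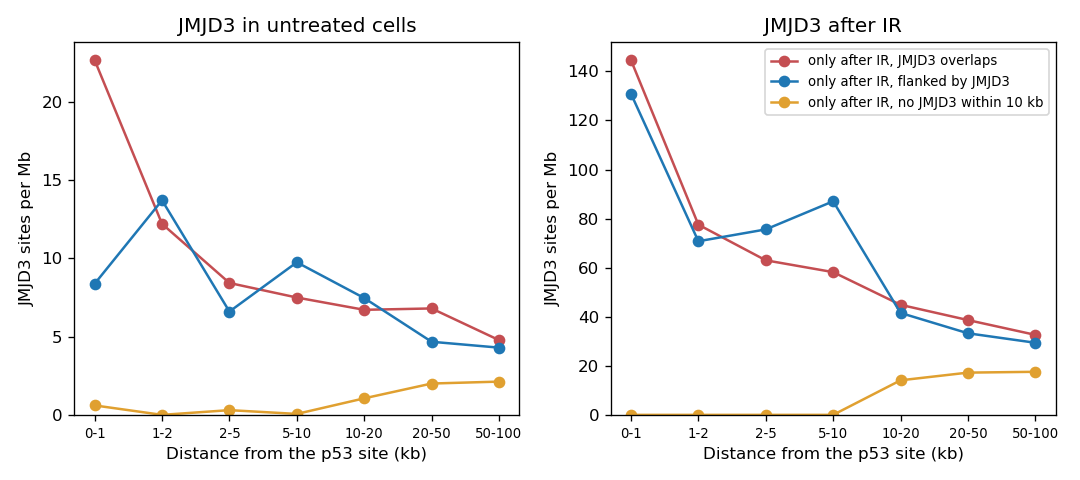
JMJD3 sites per Mb (vertical axes, different scales) in untreated cells (left) and after IR (right) by distance in kb from p53 sites listed only after IR, for overlapped (red), flanked (blue) and isolated (orange) sites. JMJD3 sites that overlap the p53 site are left out. The values within 10 kb after IR are at 0 for isolated sites because these were chosen for having no JMJD3 there. After IR the flanked sites have 131 per Mb within 1 kb, 70.8 to 87.1 out to 10 kb and 41.6 past the rule's limit, and in untreated cells they lie between 6.60 and 13.7 per Mb within 10 kb.

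In width the flanking JMJD3 sites were close to the JMJD3 list as a whole. There were 1100 distinct ones, of which 1065 flanked 1 p53 site of the set and 35 flanked 2. Their median width was 183.5 bp (179 to 189 bp), against 187 bp over all JMJD3 sites after IR and 217.5 bp (205 to 226 bp) for those overlapping a p53 site listed only after IR. At least 200 bp wide were 42.4% (39.4 to 45.3%) of the flanking sites, 44.0% of all and 56.7% (52.6 to 60.8%) of those on a p53 site. A wider JMJD3 site overlaps a p53 site more easily, so the larger width of the sites on p53 is favoured by how they were chosen.

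Few flanking JMJD3 sites were known from untreated cells, and the same held for the whole JMJD3 list after IR. An untreated JMJD3 site overlapped 100 of the 1100 (9.09%, 7.46 to 10.9%), against 11.9% of all JMJD3 sites after IR and 14.6% (11.8 to 17.7%) of those on a p53 site listed only after IR. Counting only sites 200 bp wide or wider, it was 18.0% (14.9 to 21.4%) of flanking sites and 22.6% of all. When sites were merged within 1 kb it was 9.78% (7.89 to 12.0%) against 11.1%, with a window of 20 kb 10.8% (9.47 to 12.2%) against 11.9%, and at the wider 50% of p53 sites 9.65% (7.18 to 12.6%) against 11.9%. In these 3 settings the interval included the value over all sites, so the lower share was not detectable. At 569 of the 657 p53 sites (86.6%) every JMJD3 neighbour was listed only after IR, and at 88 (13.4%) at least 1 had been listed before. This share per p53 site was not taken for other classes. As only 11.9% of all JMJD3 sites after IR were listed before, it is not read as a trait of flanked sites.

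Where wide JMJD3 sites flanked p53, they covered places already listed before damage in some cases. On chromosome 2 the p53 site from 151024061 to 151024322 had a JMJD3 site of 2587 bp after IR, 5770 bp away, over the place of 3 untreated JMJD3 sites of 867, 329 and 314 bp. On chromosome 10 the p53 site from 17329291 to 17329701 had 1 JMJD3 site of 2028 bp, 7338 bp away, which spanned untreated sites of 299 and 1309 bp. The widest flank of all, on chromosome 6 and described above, had none.

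Some JMJD3 neighbours sat on another p53 site. Of the 1100 flanking JMJD3 sites, 44 (4.0%, 2.92 to 5.33%) overlapped a p53 site after IR, against 2.02% of all JMJD3 sites after IR. The rule raises the first value, since it takes JMJD3 near p53 and a p53 site that carries JMJD3 makes its neighbour flanked. These were found at 40 of the 657 flanked sites (6.09%), and of the p53 sites below them 7 had been listed before IR and 37 only after. At the remaining flanked sites no JMJD3 neighbour overlapped a listed p53 site.

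Flanked p53 sites had p53 company of their own. Another p53 site after IR lay within 10 kb of 82 (12.5%, 10.1 to 15.3%), against 7.64% of all p53 sites after IR. The share was 11.3% (8.85 to 14.2%) at overlapped sites, 12.5% (9.22 to 16.5%) at those listed before IR and 3.44% (2.61 to 4.43%) at isolated sites. A neighbouring p53 site that carries JMJD3 makes a site flanked by the rule, and with neighbours of this kind left out the shares were 6.39% (4.65 to 8.54%) at flanked, 7.14% (5.17 to 9.57%) at overlapped and 3.44% at isolated sites, and 7.58% (5.01 to 10.9%) at those listed before IR. Over all p53 sites it was then 5.14%, inside the interval of the flanked sites. The neighbour was an overlapped site in 35 cases, another flanked site in 35, a site listed before IR in 9 and an isolated site in 4, with 1 flanked site able to have more than 1 kind. Among the wider 50% of p53 sites the share was 5.78% (3.34 to 9.21%) against 4.93% over all p53 sites of that width, so the difference was not detectable there. Narrower p53 sites were left out as neighbours too, so these values are not comparable with the 12.5%.

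**Figure D4:**
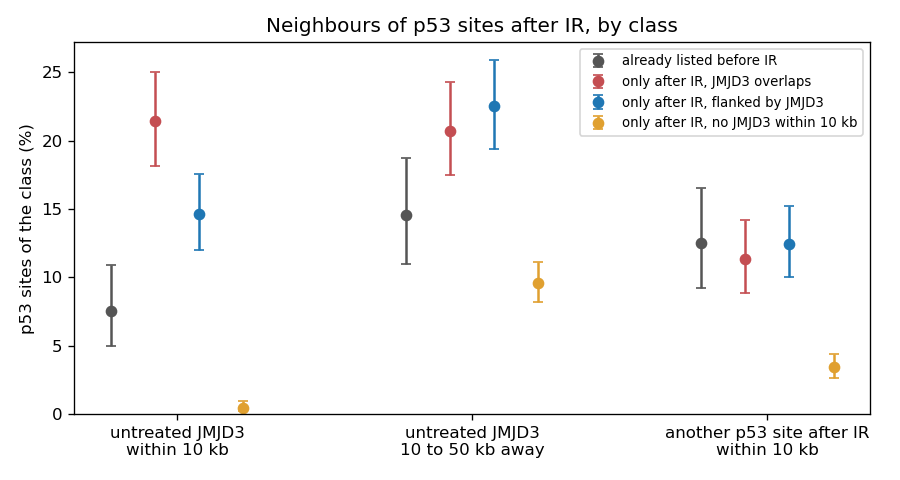
Share of p53 sites after IR in each of 4 classes (vertical axis, percent) that have an untreated JMJD3 site within 10 kb, an untreated JMJD3 site 10 to 50 kb away, or another p53 site after IR within 10 kb; points are shares and bars exact 95% intervals, which cover counting error only. Flanked sites (blue) stand at 14.6%, 22.5% and 12.5%, and isolated sites (orange) at 0.483%, 9.59% and 3.44%.

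In width the flanked p53 sites could not be told from the other sites that appeared after IR. Their median was 268 bp (257 to 277 bp), with a range of 200 to 725 bp, against 273 bp (263 to 282 bp) for overlapped and 275 bp (269 to 282 bp) for isolated sites. The median over all p53 sites after IR was 288 bp, which includes the wider sites already listed before IR with 541 bp. At the smallest width, 200 bp, were 78 flanked sites (11.9%, 9.50 to 14.6%), 9.58% (7.30 to 12.3%) of overlapped and 12.9% (11.3 to 14.6%) of isolated sites. The lists hold no score, so width is the only sign of signal strength in them, and by this sign the intervals of overlapped, flanked and isolated sites overlapped.

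**Figure D5:**
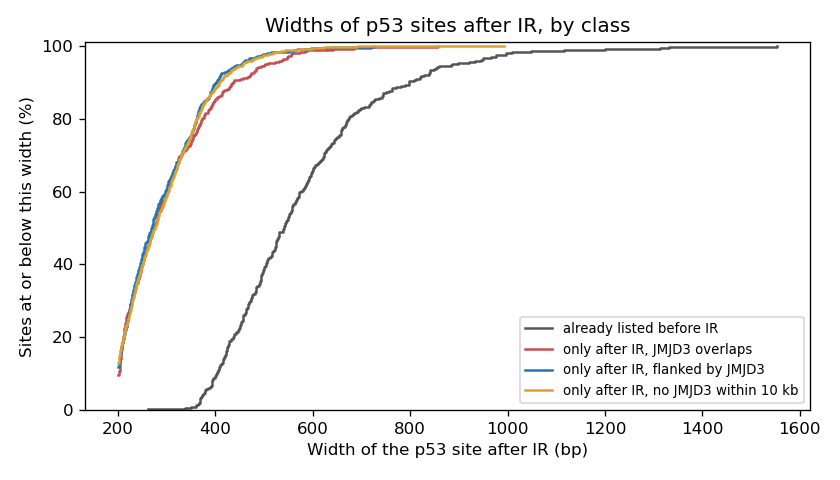
Cumulative share of p53 sites after IR (vertical axis, percent) by width in bp (horizontal axis) for sites already listed before IR (grey) and for overlapped (red), flanked (blue) and isolated (orange) sites. The 3 curves of sites listed only after IR run together, with medians of 273, 268 and 275 bp, and the sites listed before IR lie to the right with 541 bp.

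The 5 widest flanked p53 sites had 1 to 3 JMJD3 neighbours each after IR, as did 604 of the 657 flanked sites (91.9%), and like 561 of the 657 they had no untreated JMJD3 within 10 kb. The widest, on chromosome 2 from 220257568 to 220258292, was 725 bp wide and had 2 JMJD3 sites on the same side, the nearest 3572 bp away. On chromosome 7 the site from 55609339 to 55609977 was 639 bp wide, with 3 JMJD3 sites on the same side, of 132, 137 and 141 bp, and the nearest at 867 bp. The next were chr9:138564551-138565187 with 637 bp, chr20:45530568-45531177 with 610 bp and chr1:28459191-28459787 with 597 bp. Their nearest JMJD3 sites after IR were 1458, 3694 and 422 bp away. For all 5 the nearest untreated JMJD3 site was between 137 and 247 kb away, and the nearest untreated p53 site between 423 and 7782 kb.

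Flanked sites were found on every chromosome with p53 sites except Y, which had 4 p53 sites in all. The share of p53 sites after IR that were flanked was highest on chromosome 19, with 37 of 105 (35.2%, 26.2 to 45.2%), against 20.3% over all chromosomes. Chromosome 19, known as the human chromosome with the densest genes, also had the most JMJD3 sites for each p53 site after IR, 16.5 against 10.9 over all. The rule asks for JMJD3 after IR within 10 kb, so the number of JMJD3 sites bears on this share by construction. Chromosome 22 came next in JMJD3 sites for each p53 site, with 15.4, and 9 of its 49 p53 sites (18.4%, 8.76 to 32.0%) were flanked. Isolated sites made up 36.7% of its p53 sites, against 34.3% on chromosome 19 and 51.3% over all. Its other p53 sites overlapped JMJD3 or were listed before IR. The lowest shares besides Y were on chromosome X, with 5 of 49 (10.2%, 3.40 to 22.2%), and chromosome 13, with 11 of 81 (13.6%, 6.98 to 23.0%). For 23 of the 24 chromosomes the interval included the share over all chromosomes, and for chromosome 19 it did not. About 1 interval in 20 of this kind misses by counting error alone, and whether this holds for chromosome 19 was not tested.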

How the data were processed

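The data used were the 4 deposited peak lists, 1 per library, from p53 and JMJD3 ChIP-seq in untreated and irradiated BJ cells. Per the methods and the submitters' processing notes, the authors aligned tags to hg18 with Bowtie 0.12.7, retaining tags with 1 reported alignment, and detected peaks with MACS version 2 against IgG reads. The deposited columns are chromosome, start and end in bp. The threshold used is not given in the sources used here. Depth is unknown.

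Classes were assigned in Python 3.11.15 with numpy 2.4.6. Distance is the number of bases between borders, and an overlap is at least 1 shared bp. The number of flanked sites was checked with bedtools 2.31.1 (657), and the steps were tested on simulated data. Intervals came from scipy 1.17.1, plots from matplotlib 3.10.9. A share of 0 is given the limit that 3 counts allow. Regions named are the 5 widest flanked p53 sites, the 5 with the most JMJD3 neighbours (ties by wider p53 site), those nearest and farthest from JMJD3 and just outside 10 kb (3 each), the 3 nearest to untreated p53, the 3 with the widest JMJD3 neighbour and any overlapping untreated JMJD3 (none did). The members and lists were chosen with earlier results of these data known.

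Alternatives were windows of 5 and 20 kb, JMJD3 sites after IR of at least 200 bp, exclusion of p53 sites within 1 kb of a JMJD3 site after IR or an untreated p53 site, distances between centres, the wider 50% of p53 sites, autosomes, and JMJD3 sites merged within 1 kb.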

Additional observations from a re-analysis of the deposited data

How the results depend on the processing

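Of 64 comparisons of 8 results with 8 alternatives, 44 stayed within the counting interval (for the number of flanked sites, within 1.5 times) and 20 did not. The number of flanked sites was 394 with a window of 5 kb, 277 among the wider 50% of p53 sites, both part of the 657 by construction, and 417 with JMJD3 sites of at least 200 bp, of which 358 were among the 657 and 59 were overlapped sites before. With a window of 20 kb, the share with untreated JMJD3 within 10 kb was 10.1%, the median distance 6825.5 bp, the share with JMJD3 on both sides 25.9% and that with another p53 site within 10 kb 9.41%. With a window of 5 kb, the median distance was 1679 bp and the share with JMJD3 on both sides 11.4%. With JMJD3 after IR limited to sites 200 bp wide or wider, the share with untreated JMJD3 was 25.4%, that of flanking JMJD3 sites listed before IR 18.0%, their median width 274 bp, the median distance 4790 bp, the share with JMJD3 on both sides 10.8% and that with another p53 site 17.5%. When p53 sites within 1 kb of JMJD3 or of untreated p53 were left out, the median distance was 5162 bp and the share with JMJD3 on both sides 12.0%. Among the wider 50% of p53 sites the median p53 width was 360 bp and the share with another p53 site of that width 5.78%. With merged JMJD3 sites the median width of flanking sites was 200 bp, against 197 bp over all JMJD3 sites. The first lies above the second, where it lay below without merging, and with a window of 20 kb both were 187 bp. Both shares at JMJD3 of untreated cells, the p53 width and the share with another p53 site kept their order in all 8. With the same minimum width of 200 bp for both JMJD3 lists, chosen after the data were seen, the ratio of JMJD3 sites after IR to untreated was 4.08 near flanked sites and 3.28 over the lists. Distances between centres and autosomes alone moved none of the 8 results. Beyond the changes in the sites that enter, causes were not tested. No paired analysis was possible because the labels give a single library per condition, and the unknown depth limits every comparison before and after IR.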

Other observations

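Flanked p53 sites were mostly single, as were p53 sites after IR in general, of which 7.64% had another within 10 kb. Joining flanked sites within 10 kb of each other gave 639 groups, of which 622 held 1 flanked site, 16 held 2 and 1 held 3. Neighbouring p53 sites of other classes do not enter these groups. The group of 3, named after its values were seen, lay on chromosome 17, with p53 sites from 35947816 to 35948061, from 35952660 to 35952946 and from 35957330 to 35957569. They were 246, 287 and 240 bp wide and had 1, 4 and 3 JMJD3 sites after IR within 10 kb. The nearest JMJD3 site was 4392, 8061 and 3438 bp away, and untreated JMJD3 was listed within 10 kb of both sites at higher coordinates but not of the lowest.

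The flanked site on chromosome 10 from 17329291 to 17329701 had a second flanked site of 200 bp at 258 bp, and both had the same single JMJD3 neighbour. Over all 82 flanked sites with another p53 site within 10 kb, the median gap to the nearest one was 4042.5 bp, the smallest was 77 bp and 14 were within 1 kb.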
